A study of Mus musculus with 30 samples.

Results

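Arrays D, E and F of KH2 mouse embryonic stem cells were compared with arrays A, B and C at the same times of a retinoic acid (RA) course, at 12 h and at 24 h. The letter ends each array's title, and it alone chose the members: 3 arrays for 12 h D-F, 3 for 12 h A-C, 3 for 24 h D-F and 3 for 24 h A-C, in all 12 of the 30 arrays of the series. Each array holds the RNA of 1 sample on an Affymetrix mouse genome chip. All 12 carry the same labels, namely the line KH2, retinoic acid as treatment, and 12 or 24 hours as the time. The labelled protocols, shared by every array, describe cells on feeder fibroblasts, medium with 0.3 uM RA, replating for 30 minutes on a gelatin surface, and biotin labelling of 200 ng RNA. They do not say what distinguishes D to F from A to C, or whether arrays of a letter group came from separate cultures, so p-values measure only the spread between arrays. The other 18 arrays (8, 16, 36, 48, 60 and 72 h, 3 each, lettered A to C) entered the fit for its estimate of the spread.

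Embryonic stem cells exposed to RA leave pluripotency and take on neural and mesodermal character with a hindbrain and spinal cord identity. RA binds nuclear receptors (Rara, Rarb, Rarg) that sit on DNA with Rxr partners, and among the first genes to respond are those of RA breakdown and storage and the Hox genes, which switch on along their clusters from the anterior to the posterior end. The state of a culture can also show in its transcriptome, and its part in the differences below was not tested. Low oxygen stabilises the HIF factors, which act on genes of glycolysis, oxygen sensing and oxidative folding, and shortage of amino acids or other stress raises the factor ATF4, which acts at composite motifs on genes of amino acid synthesis and transport.

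The values are log2 intensities normalised before deposit, and array medians lay between 6.34 and 6.39. A single probe set stood for each of 18193 genes. Calls rest on limma's two-sided test, with p-values adjusted over all genes by Benjamini-Hochberg and a threshold of 0.05. Differences are D-F minus A-C in log2 units ± SE, with n = 3 arrays in each group. Their change with time is the difference at 12 h minus that at 24 h, tested in the same fit. The files hold no detection calls, so a difference whose lower group mean lies under 4.79, the mean lower quartile of the arrays, is given as at least its size. Of 17 control measures, 8 were apart between the letters at both times. Another 4 overlapped at both, among them the 3′ to 5′ differences of Actb and Tfrc. That of Pcx was apart at 12 h alone, at 1.07 to 1.41 in D-F and 1.51 to 1.58 in A-C. That of Gapdh was apart at 24 h alone, at 0.04 to 0.11 in D-F and -0.01 to 0.02 in A-C. The 5′ probe set of 18S ribosomal RNA lay at 8.14 to 8.79 in 12 h D-F and 10.08 to 11.12 in 12 h A-C, and at 7.99 to 8.35 in 24 h D-F and 9.03 to 10.53 in 24 h A-C. The 3′ to 5′ difference of the spike-in Dap was 3.29 to 3.42 in 12 h D-F and 2.94 to 3.03 in 12 h A-C, and 3.14 to 3.57 in 24 h D-F and 2.98 to 3.08 in 24 h A-C. The hybridisation controls BioDn and BioC differed by 1.40 to 1.53 in D-F and 0.99 to 1.07 in A-C over both times. The probe set of the B1 repeat lay at 13.23 to 13.25 in 12 h D-F and 12.35 to 12.50 in 12 h A-C, and at 13.06 to 13.32 in 24 h D-F and 12.25 to 12.33 in 24 h A-C. On the other arrays it lay at 12.80 to 13.42 from 36 h on and at 12.10 to 12.67 at 8 h and 16 h. The spike-in BioB also varied within D-F, from 7.93 to 10.09 at 12 h and from 6.73 to 9.85 at 24 h, against 9.45 to 9.75 and 9.58 to 9.67 in A-C. The part of labelling or hybridisation in the differences below was not tested, and it cannot be told apart from the letter.

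At 12 h, 7087 of 18193 genes differed between the letters (39.0%), 3133 higher (17.2%) and 3954 lower (21.7%) in D-F. At 24 h, 6141 differed (33.8%), 2422 higher (13.3%) and 3719 lower (20.4%). Centring each array on its median turned that balance, to 4156 higher and 3122 lower at 12 h and 3311 higher and 2778 lower at 24 h, so the balance of small differences depends on the scaling. Differences of at least 1 log2 were fewer: 201 genes were higher and 184 lower at 12 h, and 123 higher and 138 lower at 24 h. The median size of a difference over all genes was 0.164 at 12 h and 0.151 at 24 h. The time from 12 h to 24 h moved the median gene by 0.147 within D-F and 0.146 within A-C.

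In all, 3330 genes were called at both times in the same direction (18.3% of those tested), 1319 higher (7.25%) and 2011 lower (11.1%) in D-F. They made up 47.0% of the genes called at 12 h and 54.2% of those called at 24 h. The arrays of the letters did not overlap in 49.2% of all genes at 12 h and 46.7% at 24 h. For 3154 of the 3330 the D-F and A-C arrays did not overlap at either time (24.9% of all genes had no overlap at both times in the same direction), and 106 differed by at least 1 log2 at both, 59 higher and 47 lower. Another 1483 genes (8.15%) were called at 12 h alone with a difference that changed between the times, and 984 (5.41%) at 24 h alone in that sense. A further 1856 genes called at 12 h alone and 1409 called at 24 h alone had a change between the times that did not pass, so they are not placed with either. At both times but in opposite directions, 418 genes were called (2.3%). The comparisons at the 2 times share no array, and over all genes their differences had a Pearson r of 0.58, given as a description since genes are not independent.

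**Figure D1:**
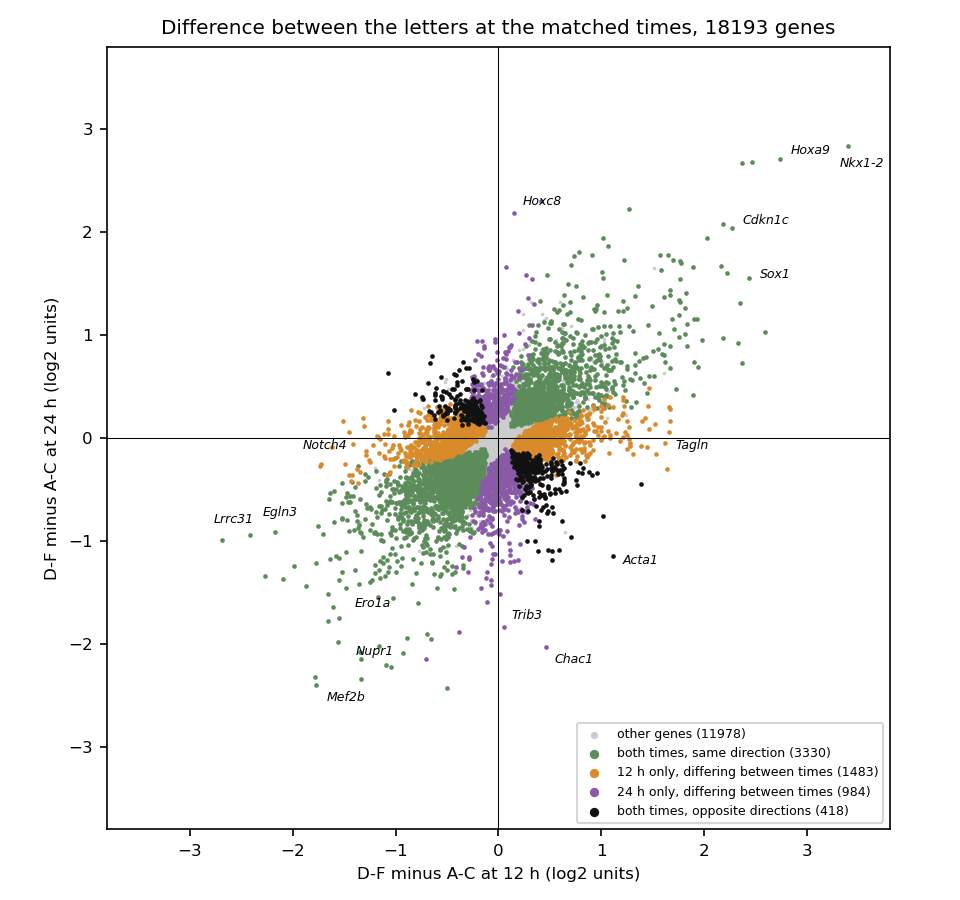
Difference of each of 18193 genes between D-F and A-C at 12 h (horizontal axis) and at 24 h (vertical axis), in log2 units, coloured by class. The 3330 genes called at both times in the same direction fill the upper right and lower left, and the 418 called in opposite directions lie in the other corners.

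Among the genes with the largest differences at both times were Nkx1-2, Sox1 and Cdkn1c, all higher in D-F. Nkx1-2, a homeobox gene of the caudal epiblast and early neural tube, stood at 7.80, 7.86 and 7.76 on 12 h D, E and F, against 4.27, 4.06 and 4.88 on 12 h A, B and C. At 24 h it stood at 7.86, 7.59 and 7.81 in D-F, against 4.66, 4.95 and 5.12 in A-C. Every D-F array lay above every A-C array, and the A-C arrays at 12 h were near the floor of the chip. The difference was at least 3.40 ± 0.24 at 12 h (adjusted p = 1.7e-10) and 2.84 ± 0.24 at 24 h (adjusted p = 4.3e-09). The 2 other probe sets of Nkx1-2 were not called at either time.

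The neural plate factor Sox1 stood at 8.40, 8.27 and 8.49 in 12 h D-F, against 6.05, 5.79 and 6.01 in 12 h A-C, and at 9.52, 9.57 and 9.74 in 24 h D-F, against 7.68, 8.47 and 8.01 in 24 h A-C. The letters did not overlap at either time. The 12 h D-F arrays overlapped the 24 h A-C arrays, and the difference shrank from 12 h to 24 h, at 2.44 ± 0.18 and 1.56 ± 0.18 (adjusted p of the change = 0.018). The other probe set of Sox1 was called at neither time. Cdkn1c, the imprinted inhibitor of cyclin-dependent kinases, stood at 11.25, 11.28 and 10.92 in 12 h D-F, against 8.71, 8.90 and 9.03 in 12 h A-C, and at 11.70, 11.59 and 11.69 in 24 h D-F, against 9.52, 9.70 and 9.64 in 24 h A-C. Its groups were apart by 2.27 ± 0.13 and 2.04 ± 0.13, with adjusted p = 8.1e-12 and 6.2e-11. Over all genes, 17.2% were higher and 21.7% lower at 12 h, and 13.3% higher and 20.4% lower at 24 h. Of the 32 measured genes of the neural plate and hindbrain list, 11 were higher and 1 lower at 12 h and 14 were higher and 4 lower at 24 h, and 9 were higher at both. Among these were Cdh2, N-cadherin (1.77 ± 0.17 at 12 h and 1.72 ± 0.17 at 24 h), Sox3, which marks neural progenitors (1.58 ± 0.12 and 1.64 ± 0.12), and Gbx2, of the anterior hindbrain (1.90 ± 0.11 and 0.74 ± 0.11). Not all of the list went that way: 2 genes turned direction and 2 were lower at 24 h alone. Pax6 turned from 0.43 at 12 h to -0.67 at 24 h, called at both, and Tubb3 was called at neither time (-0.19 and -0.27). The difference of Gbx2 was larger at 12 h (adjusted p of the change = 8.2e-06), while that of Ptn, the growth factor pleiotrophin, was larger at 24 h (1.27 ± 0.18 at 12 h and 2.22 ± 0.18 at 24 h, adjusted p = 0.0078).

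Other genes with large shared rises serve the cell surface, RNA binding and metabolism. Tnfrsf19, a receptor of the tumour necrosis factor family, was higher by 2.18 ± 0.15 at 12 h and 2.08 ± 0.15 at 24 h. Pcdh8, a protocadherin of the paraxial mesoderm, was higher by 1.89 ± 0.26 and 1.66 ± 0.26, Mex3b, an RNA-binding protein, by at least 2.22 ± 0.16 and by 1.60 ± 0.16, and Spink1, a trypsin inhibitor, by 2.03 ± 0.17 and 1.94 ± 0.17. Nt5e, the ectonucleotidase CD73, and Car3, a carbonic anhydrase, differed most at 12 h, by 2.59 ± 0.16 and 2.35 ± 0.11, and less at 24 h, by 1.03 ± 0.16 and 1.32 ± 0.11 (adjusted p of the change = 2.6e-05 and 5.4e-05).

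**Figure D2:**
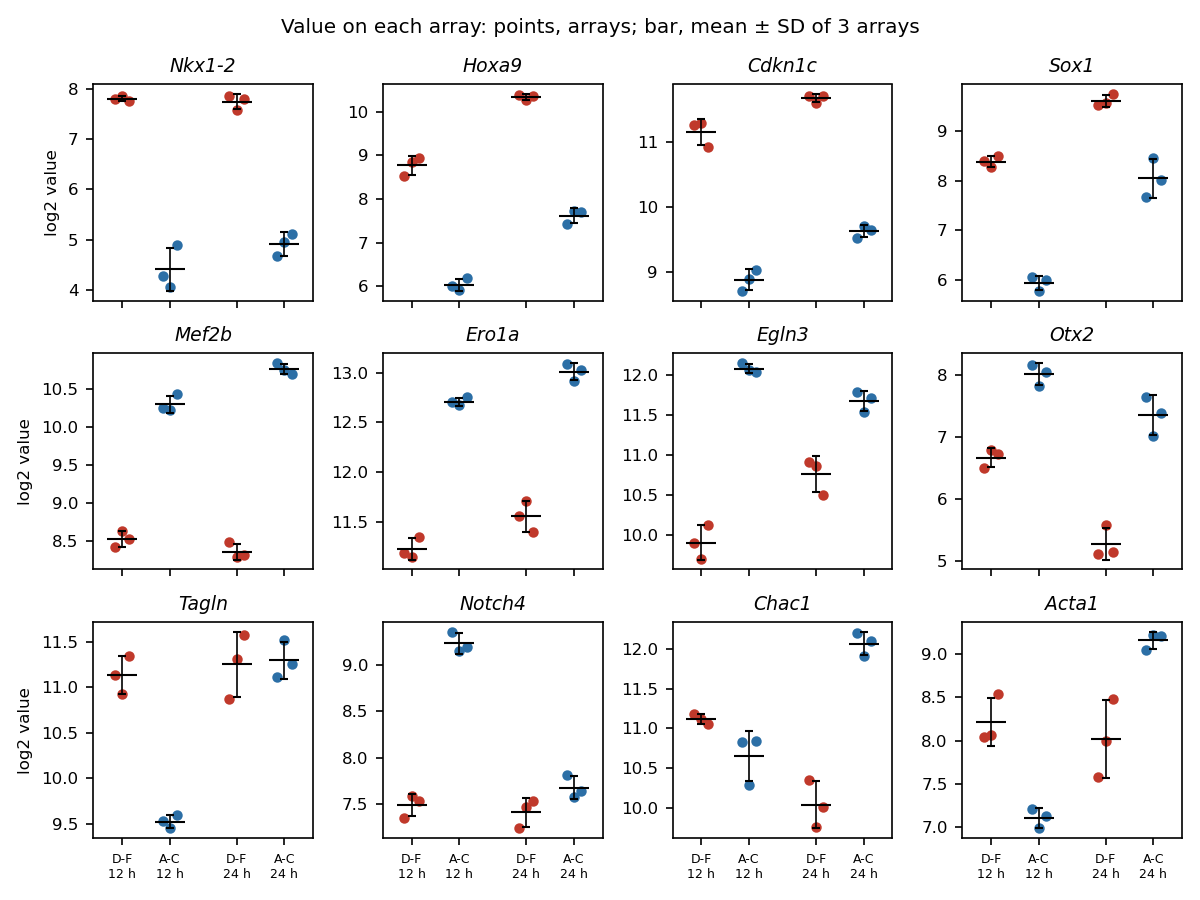
Log2 value on each array of 12 genes, with D-F (red) left of A-C (blue) at 12 h and at 24 h, and the mean ± SD of 3 arrays. In Nkx1-2, Hoxa9, Cdkn1c and Sox1 all D-F arrays lie above all A-C arrays at both times, in Mef2b, Ero1a, Egln3 and Otx2 all lie below, and in the bottom row the letters differ in another way at each time.

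Hox genes, which set position along the body axis, were higher in D-F at both times in the A, B and C clusters, while no gene of the D cluster was called at both. Hoxa9 stood at 8.52, 8.86 and 8.94 in 12 h D-F, against 6.00, 5.92 and 6.19 in 12 h A-C, and at 10.38, 10.26 and 10.36 in 24 h D-F, against 7.43, 7.72 and 7.71 in 24 h A-C. All D-F arrays were higher, and 12 h D-F already exceeded 24 h A-C. The difference was 2.74 ± 0.18 and 2.72 ± 0.18, without a called change (adjusted p = 0.97). The other probe set of Hoxa9 was called higher at 24 h and not called at 12 h. Over all genes, 17.2% were higher at 12 h and 13.3% at 24 h. Of the 10 measured genes of groups 1 to 4, 7 were higher at 12 h and 8 at 24 h and none lower, and of the 9 of groups 5 to 8, 5 were higher at 12 h and 6 at 24 h and none lower. Where the difference in these sets changed between the times, it was larger at 12 h, apart from Hoxc6 and Hoxc8. Hoxa4 differed by 1.98 ± 0.10 at 12 h and 0.95 ± 0.10 at 24 h, Hoxb1 by 1.13 ± 0.12 and 0.43 ± 0.12, Hoxa5 by 1.83 ± 0.09 and 1.11 ± 0.09, and Hoxb6 by 2.18 ± 0.14 and 0.98 ± 0.14, each with a called change. The 24 h call of Hoxb1 was lost without array A of A-C. Hoxb2 was higher at 12 h alone (1.39 ± 0.12 and 0.16 ± 0.12), as was Hoxb5 (1.65 ± 0.13 and 0.30 ± 0.13).

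Hoxb5 stood at 10.13, 10.06 and 10.12 in 12 h D-F, against 8.28, 8.37 and 8.69 in 12 h A-C, and at 10.68, 10.57 and 10.75 in 24 h D-F, against 10.27, 10.43 and 10.41 in 24 h A-C. At 24 h the groups still did not overlap, but the difference was not called. Hoxc8 showed the reverse order. It stood at 4.56, 4.41 and 4.58 in 12 h D-F, against 4.44, 4.34 and 4.31 in 12 h A-C, all near the floor, and at 6.68, 6.99 and 7.68 in 24 h D-F, against 4.59, 5.33 and 4.88 in 24 h A-C. The letters overlapped at 12 h and were apart at 24 h by 2.18 ± 0.22 (adjusted p = 3.5e-08, adjusted p of the change = 4.2e-05). Hoxc6 and Hoxc9 were also higher at 24 h alone, by 0.43 ± 0.12 and 0.37 ± 0.12, though neither was called without array A of 24 h A-C, nor Hoxc9 without array E or F of 24 h D-F. The shares over all genes were 17.2% higher and 21.7% lower at 12 h, and 13.3% higher and 20.4% lower at 24 h. Of the 14 measured genes of groups 9 to 13, 6 were higher and 1 lower at 12 h, and 5 were higher and 1 lower at 24 h. Hoxb13 was the member that was lower (-0.99 ± 0.14 and -1.20 ± 0.14). Hoxa10 differed by at least 2.37 ± 0.22 at 12 h and 2.67 ± 0.22 at 24 h through a probe set of the _a_at type, while the gene's other probe set differed by 0.02 at each time and was not called. Of 11 Cdx genes and genes of factors that bind DNA beside Hox proteins, 6 were higher and 2 lower at 12 h, and 6 were higher and 1 lower at 24 h. Meis1 was higher by 1.90 ± 0.12 and 1.16 ± 0.12, Meis2 by 1.14 ± 0.13 and 0.81 ± 0.13, and Pknox2 by 1.35 ± 0.12 and 1.47 ± 0.12. The lower ones, named after their values were seen, were Pbx2 (-0.23 and -0.16) and, at 12 h, Pbx4 (-0.28, and -0.06 at 24 h). As the mean of its probe sets Pbx2 differed by -0.10 and 0.04 and was not called, and the call of Pbx4 was lost with arrays centred on their median. Cdx2, a caudal activator of Hox genes, was higher at 12 h alone (1.08 ± 0.16 and 0.39 ± 0.16).

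Genes of RA signalling itself were called in both directions, more of them higher than lower in D-F. Cyp26a1, the enzyme that degrades RA and a direct target of its receptors, stood at 12.32, 12.36 and 12.41 in 12 h D-F, against 13.05, 13.14 and 13.20 in 12 h A-C, and at 12.65, 12.89 and 12.67 in 24 h D-F, against 13.22, 13.39 and 13.27 in 24 h A-C. It was lower on every D-F array, with differences of -0.77 ± 0.11 and -0.56 ± 0.11 (adjusted p = 5.6e-06 and 0.00032). The receptor gene Rara was lower too (-0.52 ± 0.08 and -0.26 ± 0.08), although its 24 h call was lost without array F of D-F or array A of A-C. The orphan receptors Nr2f1 and Nr2f2, which are induced by RA, were higher, by 0.71 ± 0.16 and 1.68 ± 0.16 for Nr2f1 and by 0.49 ± 0.13 and 0.96 ± 0.13 for Nr2f2 (0.19 at 12 h and not called as the mean of its probe sets), as was the transcriptional repressor Zfp703 (0.65 ± 0.09 and 0.66 ± 0.09). The 2 other probe sets of Zfp703 were called at neither time. Rdh10, which makes retinaldehyde from retinol, was higher at 12 h alone (0.69 ± 0.12 and -0.01 ± 0.12). Rarb and Dhrs3, a receptor and a retinaldehyde reductase that RA induces, were higher at 24 h alone (Rarb -0.01 ± 0.12 and 0.58 ± 0.12, Dhrs3 0.11 ± 0.07 and 0.57 ± 0.07). Crabp1, which holds RA in the cytoplasm, turned from -0.40 ± 0.12 at 12 h to 0.41 ± 0.12 at 24 h. Of the 24 measured genes of the list, 8 were higher and 3 lower at 12 h and 12 were higher and 3 lower at 24 h.

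Of 33 endoderm genes, 21 were higher and 2 lower in D-F at 12 h and 18 were higher and 3 lower at 24 h, with 15 higher at both. That is 63.6% and 54.5% higher, against 17.2% and 13.3% of all genes. The lower shares were 6.1% and 9.1%, against 21.7% and 20.4%. Cubn, the endocytic receptor cubilin of visceral endoderm, was higher by 1.61 ± 0.23 and 1.37 ± 0.23, and Fst, the activin antagonist follistatin, by 1.71 ± 0.22 and 1.06 ± 0.22. Sox17, which specifies endoderm, was higher by 1.17 and 1.09. Foxa1, another endoderm factor, went the other way, by -1.63 ± 0.09 and -1.18 ± 0.09, and Foxa2 was higher by 0.54 at 12 h (0.37 without array A of A-C and 0.48 without array D of D-F, not called in either) and not called at 24 h (0.11).

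Some genes of contractile and mesenchymal cells were higher in D-F with a wide spread among its arrays. Cavin2, a coat protein of caveolae, stood at 7.10, 6.85 and 8.45 in 12 h D-F, against 4.77, 4.95 and 5.30 in 12 h A-C, and at 6.50, 8.10 and 8.70 in 24 h D-F, against 4.70, 5.70 and 4.87 in 24 h A-C. Array F was highest at each time and no array overlapped, with differences of 2.46 ± 0.76 and 2.68 ± 0.76. Without array F the difference was 1.97 at 12 h and 2.21 at 24 h and was called at neither. As the mean of its probe sets Cavin2 differed by 1.59 at 12 h and was not called. Acta2, smooth muscle actin, stood at 10.68, 10.26 and 11.73 in 12 h D-F, against 9.11, 9.09 and 9.21 in 12 h A-C, and at 10.12, 11.47 and 11.96 in 24 h D-F, against 9.38, 10.46 and 9.69 in 24 h A-C. Array F was highest again, and at 24 h array D lay below array B of A-C. The differences were 1.76 ± 0.40 and 1.35 ± 0.40, and without _a_at, _s_at and _x_at probe sets they were 0.40 and 0.15 and not called. The 24 h call was also lost without array F of D-F (0.96) or array A of A-C (1.11). Prss23, a secreted serine protease, was also highest on array F and was higher by 2.17 ± 0.45 and 1.68 ± 0.45, and by 1.26 at 24 h without array F, which was not called. Without _a_at, _s_at and _x_at probe sets its differences were 0.80 and 0.31 and called at neither time, while the mean of its probe sets differed by 1.06 at 24 h and was not called. Of the 35 measured markers of embryonic fibroblasts, the type of the feeder layer, 14 were higher and 0 lower at 12 h and 9 were higher and 1 lower at 24 h. That is 40.0% and 25.7% higher, against 17.2% and 13.3% of all genes. The mean log2 level of those 35 genes ran from 8.90 to 9.54 on 12 h D-F arrays and from 8.84 to 8.86 on 12 h A-C arrays, and from 8.96 to 9.67 in 24 h D-F and 9.05 to 9.19 in 24 h A-C. The collagens Col1a1, Col1a2 and Col3a1 and the fibroblast genes Thy1, Postn, Lum and Dcn were not called at either time. The part of feeder cells in these differences was not tested, and in bulk RNA more cells of a type and more RNA per cell cannot be told apart.

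The hypoxia response was lower in D-F at both times. Of its 19 measured genes, 16 were lower at 12 h (84.2%, against 21.7% of all genes) and 14 at 24 h (73.7%, against 20.4%). None was higher at either time, and the 14 were lower at both. The median difference was -1.13 at 12 h and -0.59 at 24 h, against -0.018 and -0.032 over all genes. Ero1a, the oxidase that drives disulphide formation in the endoplasmic reticulum, stood at 11.18, 11.15 and 11.35 in 12 h D-F, against 12.70, 12.67 and 12.75 in 12 h A-C, and at 11.55, 11.71 and 11.40 in 24 h D-F, against 13.08, 12.92 and 13.03 in 24 h A-C. No arrays overlapped, the differences being -1.48 ± 0.13 (adjusted p = 3.7e-09) and -1.46 ± 0.13 (adjusted p = 7.6e-09). Both other probe sets of Ero1a were called lower at both times as well.

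Egln3, a prolyl hydroxylase that marks HIF for degradation, stood at 9.91, 9.70 and 10.13 in 12 h D-F, against 12.15, 12.06 and 12.03 in 12 h A-C, and at 10.91, 10.87 and 10.51 in 24 h D-F, against 11.78, 11.54 and 11.72 in 24 h A-C. Its difference was larger at 12 h, at -2.17 ± 0.24 against -0.92 ± 0.24 at 24 h (adjusted p of the change = 0.0093). Ndrg1, a stress-responsive gene induced by low oxygen, differed by -1.61 ± 0.21 and -1.64 ± 0.21, and its 4 other probe sets agreed in direction and call at both times. Bhlhe40, a transcriptional repressor, differed by -1.70 ± 0.14 and -0.93 ± 0.14. Ndufa4l2, a mitochondrial protein known as a HIF target, differed by -2.41 ± 0.27 and -0.95 ± 0.27, though at 24 h it was not called without array F (-0.75). In the list for glycolysis, 11 of 18 genes were lower and none higher at 12 h (median -0.22), while 3 were lower and 3 higher at 24 h. At 12 h 61.1% were lower, against 21.7% of all genes. At 24 h 16.7% were lower and 16.7% higher, near the 20.4% and 13.3% of all genes. The 18 include Pigq, a gene outside glycolysis that was matched to the listed Gpi1 through a shared synonym. The glycolysis median at 24 h was -0.03, and its sign turned when arrays were centred. Pfkp, a phosphofructokinase, was lower, differing by -1.34 ± 0.16 and -0.92 ± 0.16. Aldoc, an aldolase, was lower, differing by -1.75 ± 0.28 and -0.85 ± 0.28, but its other probe set gave -0.18 and -0.24 and was not called, while Hk1, a hexokinase, and Eno2, neuronal enolase, were lower at 12 h alone (-0.77 ± 0.08 and -1.42 ± 0.16 at 12 h).

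Promoters were read for the hypoxia genes because the members of that list moved together. The motif, ACGTG or GCGTG on either strand, was chosen after the list was seen to move. It occurred in a promoter of all 17 hypoxia genes that have an entry (a window around a RefSeq start) and in 14 of 17 genes of the glycolysis list (82.4%), against 46.7% of 27025 genes. These are matches of letters, not binding sites, and the promoters were not matched for base composition. The counts rest on list membership and sequence alone, so they would be the same whatever the array values. The part of HIF in the differences was not tested. The promoters of the genes shown above with an entry are given below in build GRCm38.p6, 5′ to 3′ on the gene's strand, with the motif letters in capitals as they read on that strand (CACGT is ACGTG on the opposite strand). Ero1a is at chr14:45318523-45318822 and Egln3 at chr12:54203825-54204124, both on the minus strand.
Ero1a: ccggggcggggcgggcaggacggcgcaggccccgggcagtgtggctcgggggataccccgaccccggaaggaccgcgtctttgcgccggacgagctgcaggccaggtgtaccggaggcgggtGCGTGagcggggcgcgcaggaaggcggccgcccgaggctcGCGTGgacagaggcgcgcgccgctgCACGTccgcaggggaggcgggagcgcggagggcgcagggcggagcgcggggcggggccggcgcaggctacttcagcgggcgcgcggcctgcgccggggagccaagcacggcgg
Egln3: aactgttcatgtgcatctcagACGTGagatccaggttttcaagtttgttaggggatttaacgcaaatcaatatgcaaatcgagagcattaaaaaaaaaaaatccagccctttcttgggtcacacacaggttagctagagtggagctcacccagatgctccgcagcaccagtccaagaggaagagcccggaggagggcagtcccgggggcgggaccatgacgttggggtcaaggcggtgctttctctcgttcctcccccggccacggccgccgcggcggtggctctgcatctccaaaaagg
The Ero1a window holds the motif 3 times and that of Egln3 once.

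Outside the hypoxia list, other genes with large shared differences were lower in D-F. Mef2b, a MADS-box transcription factor, stood at 8.43, 8.63 and 8.53 in 12 h D-F, against 10.24, 10.22 and 10.43 in 12 h A-C, and at 8.49, 8.29 and 8.32 in 24 h D-F, against 10.84, 10.75 and 10.70 in 24 h A-C. No arrays overlapped, and the difference was larger at 24 h, -1.77 ± 0.11 against -2.40 ± 0.11 (adjusted p of the change = 0.0049). Otx2, a homeobox gene of the anterior and formative epiblast, stood at 6.50, 6.80 and 6.72 in 12 h D-F, against 8.17, 7.82 and 8.05 in 12 h A-C, and at 5.12, 5.58 and 5.15 in 24 h D-F, against 7.66, 7.03 and 7.39 in 24 h A-C. It was lower on every D-F array, with differences of -1.34 ± 0.17 and -2.08 ± 0.17. The metallothionein gene Mt4 was lower, differing by -1.79 ± 0.23 and -2.32 ± 0.23.

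Lipid and sugar enzymes were among the rest. G0s2, an inhibitor of triglyceride breakdown, was lower, differing by -1.33 ± 0.14 and -2.34 ± 0.14, Liph, a phospholipase, by -1.66 ± 0.12 and -1.78 ± 0.12, Pla2g2e, a secreted phospholipase, by -1.34 ± 0.14 and -2.15 ± 0.14, and Pygl, glycogen phosphorylase, by -2.09 ± 0.30 and -1.37 ± 0.30. Pck2, the mitochondrial enzyme that makes phosphoenolpyruvate, was lower, differing by -1.56 ± 0.18 and -1.99 ± 0.18, and Acp5, an acid phosphatase, by -1.87 ± 0.13 and -1.44 ± 0.13. Inhbb, an activin subunit, was lower, differing by -1.55 ± 0.27 and -1.75 ± 0.27, Zc3h6, a zinc finger gene, by -2.27 ± 0.30 and -1.34 ± 0.30, and Lrrc31, whose D-F means were near the floor, by at least -2.69 and -0.99 in size. Jdp2, a leucine zipper factor, was lower, differing by -1.09 ± 0.18 and -2.20 ± 0.18 on an _a_at probe set, whereas its other probe set gave -0.09 and 0.08 and was not called.

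Lysosome and autophagy genes were lower in D-F mainly at 12 h. Of 27 measured genes, 23 were lower at 12 h (85.2%, against 21.7% of all genes) and 12 at 24 h (44.4%, against 20.4%). None was higher, and 8 were lower at 12 h alone with a called change. The median was -0.46 at 12 h and -0.16 at 24 h. Naglu, which degrades heparan sulphate, stood at 6.89, 6.58 and 7.00 in 12 h D-F, against 7.93, 7.79 and 7.96 in 12 h A-C, and at 7.49, 7.58 and 7.34 in 24 h D-F, against 8.18, 8.11 and 8.00 in 24 h A-C. The letters did not overlap, and the gap of -1.08 ± 0.10 at 12 h narrowed to -0.63 ± 0.10 (adjusted p of the change = 0.029). Sqstm1, an autophagy receptor, differed by -0.73 ± 0.07 and -0.59 ± 0.07 (-0.13 at 24 h, not called, on another probe set), and Gabarapl1, of the autophagosome coat, by -0.79 ± 0.06 and -0.36 ± 0.06. The motif CACGTG, which the lysosomal regulators TFEB and TFE3 bind, was read in the same promoter windows. It occurred in 10 of 23 genes with an entry (43.5%), against 8.09% of all genes. It contains ACGTG, so the motif counts overlap. It was likewise chosen after the list was seen to move, and its count rests on list membership and sequence alone. The part of TFEB and TFE3 was not tested.

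**Figure D3:**
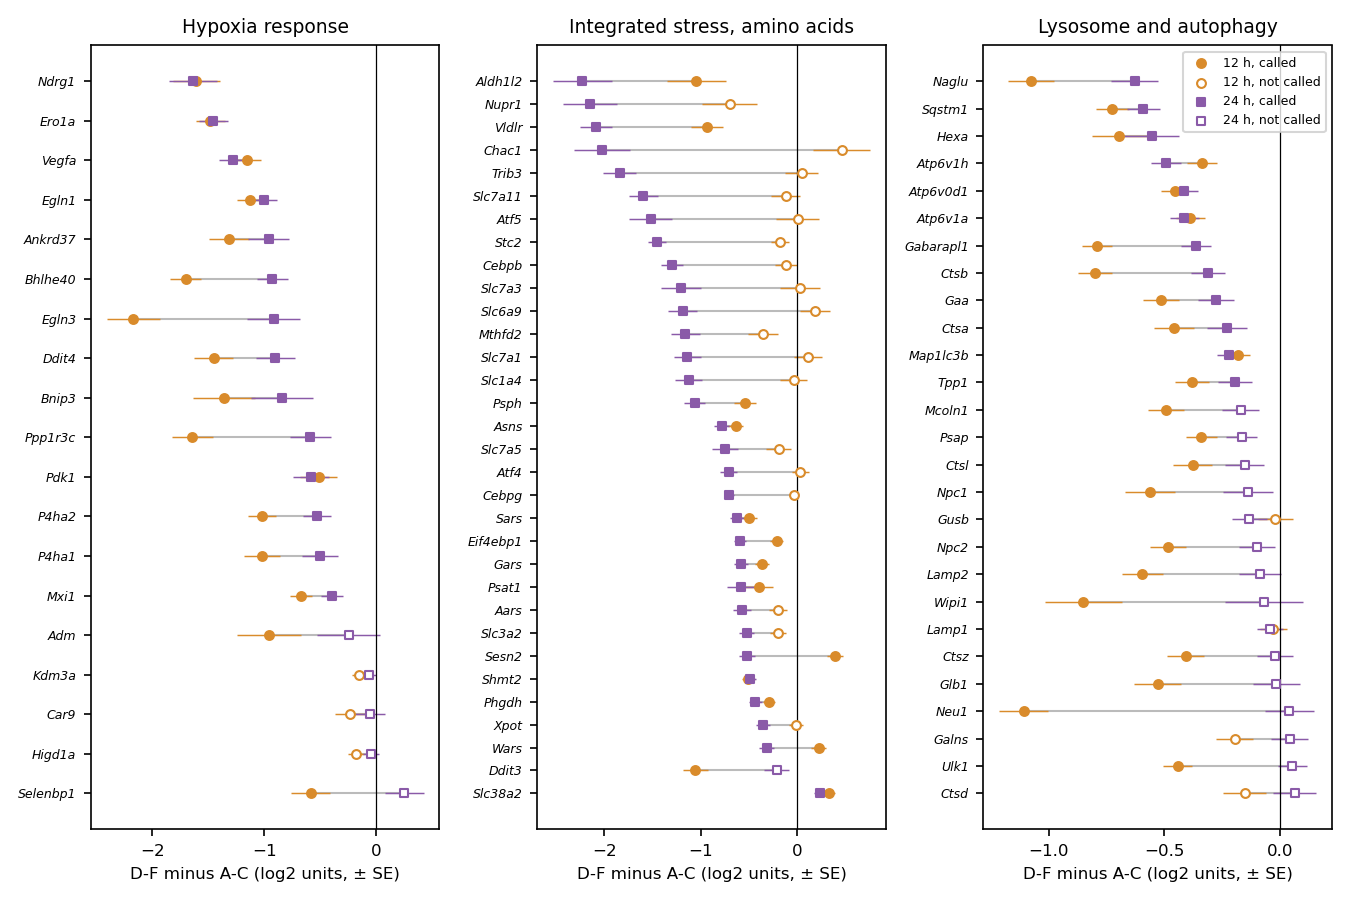
Difference between D-F and A-C (log2 units ± SE) of every measured gene of 3 lists at 12 h (orange circles) and 24 h (purple squares), filled where called. In the hypoxia list 14 genes are called lower at both times, in the integrated stress list 30 of 32 are called lower at 24 h, and in the lysosome list most 12 h points lie further from 0 than the 24 h points.

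At 12 h alone, 724 genes were higher and 759 lower in D-F. Tagln, an actin-binding protein of smooth muscle, stood at 11.14, 10.93 and 11.35 in 12 h D-F, against 9.53, 9.45 and 9.60 in 12 h A-C, and at 10.87, 11.32 and 11.57 in 24 h D-F, against 11.12, 11.52 and 11.26 in 24 h A-C. The groups were apart at 12 h (1.61 ± 0.16) and overlapped at 24 h (-0.05 ± 0.16). Krt8, a simple-epithelial keratin, was likewise higher at 12 h alone (1.53 ± 0.16 and -0.15 ± 0.16), and both its other probe sets were called higher at 12 h and not at 24 h. Cdk6, a kinase of the cell cycle, stood at 9.51, 9.45 and 9.40 in 12 h D-F, against 7.91, 7.63 and 7.82 in 12 h A-C, and at 8.78, 8.80 and 9.01 in 24 h D-F, against 8.60, 8.59 and 8.54 in 24 h A-C. The arrays did not overlap at either time, but only the 12 h difference was called (1.67 ± 0.14 and 0.29 ± 0.14). The 2 other probe sets of Cdk6 gave 1 call of higher at 12 h and 1 of lower at 24 h. Also higher at 12 h alone were Anxa3, a calcium-binding annexin (1.66 ± 0.11), Nefl, the neurofilament light chain (1.66 ± 0.12), Rfx4, a factor of the neural tube (1.52 ± 0.16), and Ahnak, a large scaffold protein (1.46 ± 0.22). However, the other probe set of Nefl was called higher at both times. None of the 3 other sets of Ahnak was called at 12 h, and 1 was called lower at 24 h.

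Among the 759 genes lower at 12 h alone, Notch4, a Notch receptor, stood at 7.36, 7.59 and 7.54 in 12 h D-F, against 9.35, 9.15 and 9.19 in 12 h A-C, and at 7.24, 7.47 and 7.53 in 24 h D-F, against 7.82, 7.58 and 7.64 in 24 h A-C. The arrays did not overlap at either time, with differences of -1.74 ± 0.13 and -0.27 ± 0.13, and the change between the times was called (adjusted p = 6.2e-06). Rgcc, a regulator of the cell cycle, was lower, differing by -1.73 ± 0.12 at 12 h, Igsf21, a synaptic adhesion protein, by -1.62 ± 0.19, Nfe2l3, a leucine zipper factor, by -1.51 ± 0.20, and Sema4g, a semaphorin, by -1.49 ± 0.11. Vsir, an immune checkpoint protein, was lower, differing by -1.46 ± 0.16 and Dlx3, a homeobox gene, by -1.43 ± 0.19. At 24 h their differences lay between -0.42 (Dlx3) and 0.16 (Nfe2l3), and none was called. The other probe set of Vsir was called lower at 24 h and not at 12 h.

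At 24 h alone, 341 genes were higher and 643 lower. The integrated stress response was lower at that time. Of 32 measured genes of that response and of amino acid supply, 30 were lower and 1 higher at 24 h (96.9% called), against 11 lower and 3 higher at 12 h (43.8%). Over all genes, 33.8% were called at 24 h and 39.0% at 12 h. The median was -0.18 at 12 h and -0.76 at 24 h, and 16 genes were lower at 24 h alone with a called change. The gene higher at 24 h was Slc38a2, an amino acid transporter (0.24, or 0.06 and not called as the mean of its probe sets), and the one not called was Ddit3, a factor of stress-induced death (-0.21), both named after their values were seen. Chac1, an enzyme that degrades glutathione, stood at 11.18, 11.11 and 11.06 in 12 h D-F, against 10.83, 10.29 and 10.84 in 12 h A-C, and at 10.35, 9.76 and 10.01 in 24 h D-F, against 12.19, 11.91 and 12.09 in 24 h A-C. D-F lay above A-C at 12 h, with a difference of 0.46 ± 0.29 that was not called, and below it at 24 h, with a difference of -2.03 ± 0.29 (adjusted p = 8.1e-06). Trib3, a pseudokinase induced by ATF4, stood at 9.91, 9.72 and 9.85 in 12 h D-F, against 9.89, 9.59 and 9.85 in 12 h A-C, and at 9.26, 8.96 and 8.83 in 24 h D-F, against 11.02, 10.71 and 10.83 in 24 h A-C. The letters overlapped at 12 h and were -1.84 ± 0.17 apart at 24 h (adjusted p = 1.1e-08). From 12 h to 24 h its level was lower on all D-F arrays and higher on all A-C arrays.

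Nupr1, a stress-induced chromatin protein, stood at 9.82, 9.76 and 9.88 in 12 h D-F, against 10.40, 10.48 and 10.67 in 12 h A-C, and at 9.47, 9.39 and 9.27 in 24 h D-F, against 11.65, 11.44 and 11.48 in 24 h A-C. It did not overlap at either time, and the gap widened from -0.70 ± 0.28, not called, to -2.15 ± 0.28. The other probe set of Nupr1 was called lower at both times. Atf5, a relative of ATF4, was lower at 24 h, differing by -1.52 ± 0.22, and Stc2, the secreted stanniocalcin, by -1.45 ± 0.09. Slc25a40, a mitochondrial glutathione carrier that is not on the list, differed by -1.43 ± 0.07. Their 12 h differences were 0.01 (Atf5), -0.17 (Stc2) and -0.08 (Slc25a40). Aldh1l2, a mitochondrial folate enzyme, and Vldlr, a lipoprotein receptor that ATF4 induces, were lower at both times and more so at 24 h (Aldh1l2 -1.05 ± 0.31 and -2.23 ± 0.31, Vldlr -0.93 ± 0.17 and -2.09 ± 0.17). The change was called for Vldlr (adjusted p = 0.0011) and not for Aldh1l2 (adjusted p = 0.058).

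The motif TGATGNAA, the composite site of ATF4 with its partners, was read in the promoters of these genes for the same reason as above and was likewise chosen after the list was seen to move. It occurred on either strand in 9 of 27 genes with an entry (33.3%), against 4.51% of all genes. This count too rests on list membership and sequence alone, and the part of ATF4 was not tested. The windows of the genes described are printed in the same way, with a motif on the opposite strand shown as its reverse complement. Chac1 is at chr2:119350992-119351291 on the plus strand, Trib3 at chr2:152344011-152344310 on the minus strand, Nupr1 at chr7:126625421-126625720 on the minus strand, and the second of the 2 listed starts of Vldlr at chr19:27216770-27217069 on the plus strand.
Chac1: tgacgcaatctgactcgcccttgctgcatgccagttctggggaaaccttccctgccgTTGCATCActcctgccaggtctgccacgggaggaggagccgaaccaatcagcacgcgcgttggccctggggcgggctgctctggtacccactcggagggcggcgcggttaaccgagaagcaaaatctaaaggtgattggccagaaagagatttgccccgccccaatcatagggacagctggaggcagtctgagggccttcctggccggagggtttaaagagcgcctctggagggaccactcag
Trib3: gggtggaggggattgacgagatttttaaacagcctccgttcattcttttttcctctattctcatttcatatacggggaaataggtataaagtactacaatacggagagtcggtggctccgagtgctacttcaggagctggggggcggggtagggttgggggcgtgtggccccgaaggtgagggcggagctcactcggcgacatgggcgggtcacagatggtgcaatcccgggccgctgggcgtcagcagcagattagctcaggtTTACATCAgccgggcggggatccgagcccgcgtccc
Nupr1: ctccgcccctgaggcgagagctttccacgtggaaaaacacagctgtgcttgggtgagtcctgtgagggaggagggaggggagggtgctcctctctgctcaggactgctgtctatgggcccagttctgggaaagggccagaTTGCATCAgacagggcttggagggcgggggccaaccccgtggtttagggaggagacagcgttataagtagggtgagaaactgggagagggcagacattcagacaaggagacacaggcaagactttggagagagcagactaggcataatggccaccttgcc
Vldlr: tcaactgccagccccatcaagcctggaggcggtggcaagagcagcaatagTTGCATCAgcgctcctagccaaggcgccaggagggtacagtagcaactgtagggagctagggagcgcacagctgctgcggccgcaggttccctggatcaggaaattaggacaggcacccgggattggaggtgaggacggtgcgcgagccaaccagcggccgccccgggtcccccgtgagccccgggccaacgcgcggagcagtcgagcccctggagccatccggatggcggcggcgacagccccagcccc
Each of these windows holds the motif once, and the other start of Vldlr holds none.

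Also lower at 24 h alone outside that list were Fbln5, an elastic fibre protein (-1.89 ± 0.34), and Platr4, a long non-coding RNA of stem cells (-1.38 ± 0.14). Several genes of development were among those higher at 24 h alone. Fgf15, a secreted growth factor of the neural tube, stood at 8.37, 8.34 and 8.27 in 12 h D-F, against 7.87, 8.08 and 8.17 in 12 h A-C, and at 9.37, 9.07 and 9.48 in 24 h D-F, against 7.92, 7.92 and 8.01 in 24 h A-C. The A-C arrays stood at like levels at both times and D-F was higher at 24 h, with differences of 0.29 ± 0.13 and 1.36 ± 0.13 (adjusted p of the change = 0.00016). Lhx1, a homeobox gene of mesoderm and neurons, was higher by 1.23 ± 0.14, Ednrb, the endothelin receptor of neural crest, by 1.30 ± 0.16, and Lrp4, a receptor that tunes Wnt and agrin signals, by 1.00 ± 0.11. Col8a2, a short-chain collagen, was higher by 1.10 ± 0.16, Tgfbi, a matrix protein, by 0.94 ± 0.11, and Cbr3, a carbonyl reductase, by 0.97 ± 0.17.

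Of the 418 genes that changed direction, 253 were higher in D-F at 12 h and lower at 24 h, and 165 the reverse. Acta1, skeletal muscle actin, stood at 8.05, 8.06 and 8.54 in 12 h D-F, against 7.21, 6.98 and 7.13 in 12 h A-C, and at 7.58, 8.00 and 8.48 in 24 h D-F, against 9.05, 9.22 and 9.21 in 24 h A-C. A-C was higher at 24 h than at 12 h, and no arrays overlapped at either time (1.11 ± 0.19 and -1.14 ± 0.19). Actc1, cardiac actin, had the same pattern (0.71 ± 0.23 and -0.96 ± 0.23), but at 12 h it was not called without array F (0.65). The actin genes are near copies, so their probe sets may share signal. Sycp1, of the meiotic synaptonemal complex, stood at 7.15, 7.26 and 7.08 in 12 h D-F, against 6.53, 6.62 and 6.58 in 12 h A-C, and at 6.65, 6.79 and 6.65 in 24 h D-F, against 7.82, 7.80 and 7.74 in 24 h A-C. It was 0.59 ± 0.10 at 12 h and -1.09 ± 0.10 at 24 h, with the highest values in 24 h A-C. Mme, the peptidase neprilysin (1.38 ± 0.12 and -0.45 ± 0.12), and Ltb, a lymphotoxin subunit (1.01 ± 0.15 and -0.76 ± 0.15), turned the same way. The reverse turn was seen for Nuak2, a stress kinase (-0.81 ± 0.11 and 0.43 ± 0.11), and St6galnac3, a sialyltransferase (-0.66 ± 0.14 and 0.73 ± 0.14). However, the 2 other probe sets of St6galnac3 were called at neither time. Mipol1 (-1.07 ± 0.17 and 0.64 ± 0.17), Pxylp1, a phosphatase of proteoglycan synthesis (-0.65 ± 0.15 and 0.79 ± 0.15), and Gjb5, a connexin (-1.01 ± 0.10 and 0.27 ± 0.10), also turned, but their 24 h call did not hold in every alternative: the mean of the probe sets of Mipol1 differed by 0.02, with 1 of its 3 other sets called lower, another probe set of Pxylp1 by 0.36, and Gjb5 lost its call without any of 4 arrays (0.21 to 0.28).

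The shares over all genes were 17.2% higher and 21.7% lower at 12 h, and 13.3% higher and 20.4% lower at 24 h. Of 28 measured heat shock and unfolded protein genes, 7 were higher and 10 lower at 12 h, and 21 were higher and 2 lower at 24 h. The other 20 of the 28 were not called in opposite directions. The 8 that were lower at 12 h and higher at 24 h were Hspa5 (-0.30 and 0.47), Pdia4 (-0.43 and 0.38), Pdia6 (-0.48 and 0.43), Calr (-0.25 and 0.58), Dnajc3 (-0.38 and 0.43), Sdf2l1 (-0.69 and 0.53), Creld2 (-0.21 and 0.56) and Manf (-0.43 and 0.47), named after their values were seen. The 12 h call of Creld2 was lost when any 1 of the 6 arrays was left out, and the mean of all probe sets was not called for Hspa5 at 12 h (-0.0041) and Pdia4 at 24 h (0.11). As background, Hspa5, Calr, Pdia4 and Pdia6 are folding factors of the endoplasmic reticulum. Hsp90b1, the chaperone of the same compartment, was higher at 24 h alone (0.01 ± 0.08 and 0.66 ± 0.08), and Xbp1, a factor that induces such chaperones, was lower at both times (-0.92 ± 0.08 and -0.48 ± 0.08, and -0.01 at 24 h, not called, without _a_at, _s_at and _x_at probe sets). Cytosolic Hspa1b was higher at both (0.81 ± 0.13 and 0.81 ± 0.13). It shares most of its sequence with Hspa1a, called higher at 24 h alone (0.01 ± 0.16 and 0.71 ± 0.16), so the signals of these genes are uncertain.

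For the counts that follow, the shares over all genes were 17.2% higher and 21.7% lower at 12 h, and 13.3% and 20.4% at 24 h. Of 19 cholesterol synthesis genes, 11 were higher and 1 lower at 12 h (median 0.27) and 16 were higher and none lower at 24 h (median 0.50). Promoters were read for this list too, with the motif TCACNCCAC. It occurred in 1 of 15 genes with an entry (6.67%), against 1.44% of all genes. Idi1, isopentenyl diphosphate isomerase, stood at 11.53, 11.55 and 11.53 in 12 h D-F, against 10.51, 10.65 and 10.48 in 12 h A-C, and at 11.44, 11.48 and 11.53 in 24 h D-F, against 10.73, 10.60 and 10.74 in 24 h A-C. Its arrays did not overlap, and it differed by 0.99 ± 0.07 and 0.79 ± 0.07. Insig1, the sterol sensor that restrains this pathway, differed more at 24 h, and its 12 h call was lost without array F of D-F or array C of A-C (0.30 ± 0.10 and 1.10 ± 0.10, adjusted p of the change = 0.00016). Of 38 genes of nucleolar ribosome biogenesis, 26 were higher and 0 lower at 12 h and 21 were higher and 1 lower at 24 h, among them Nolc1, a nucleolar chaperone (0.61 ± 0.08 and 0.64 ± 0.08), and Ddx21, an RNA helicase (0.71 ± 0.12 and 0.47 ± 0.12). Of 31 DNA replication genes, 11 were higher and 4 lower at 12 h and 21 were higher and 0 lower at 24 h. Of 32 mitosis genes, 0 were higher and 20 lower at 12 h (median -0.20), and 1 was higher and 13 lower at 24 h (median -0.10). Of 27 cytosolic ribosomal proteins, 5 were called at each time (18.5%), against 39.0% and 33.8% of all genes, and their medians of -0.026 and -0.0047 changed sign when arrays were centred.

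**Figure D4:**
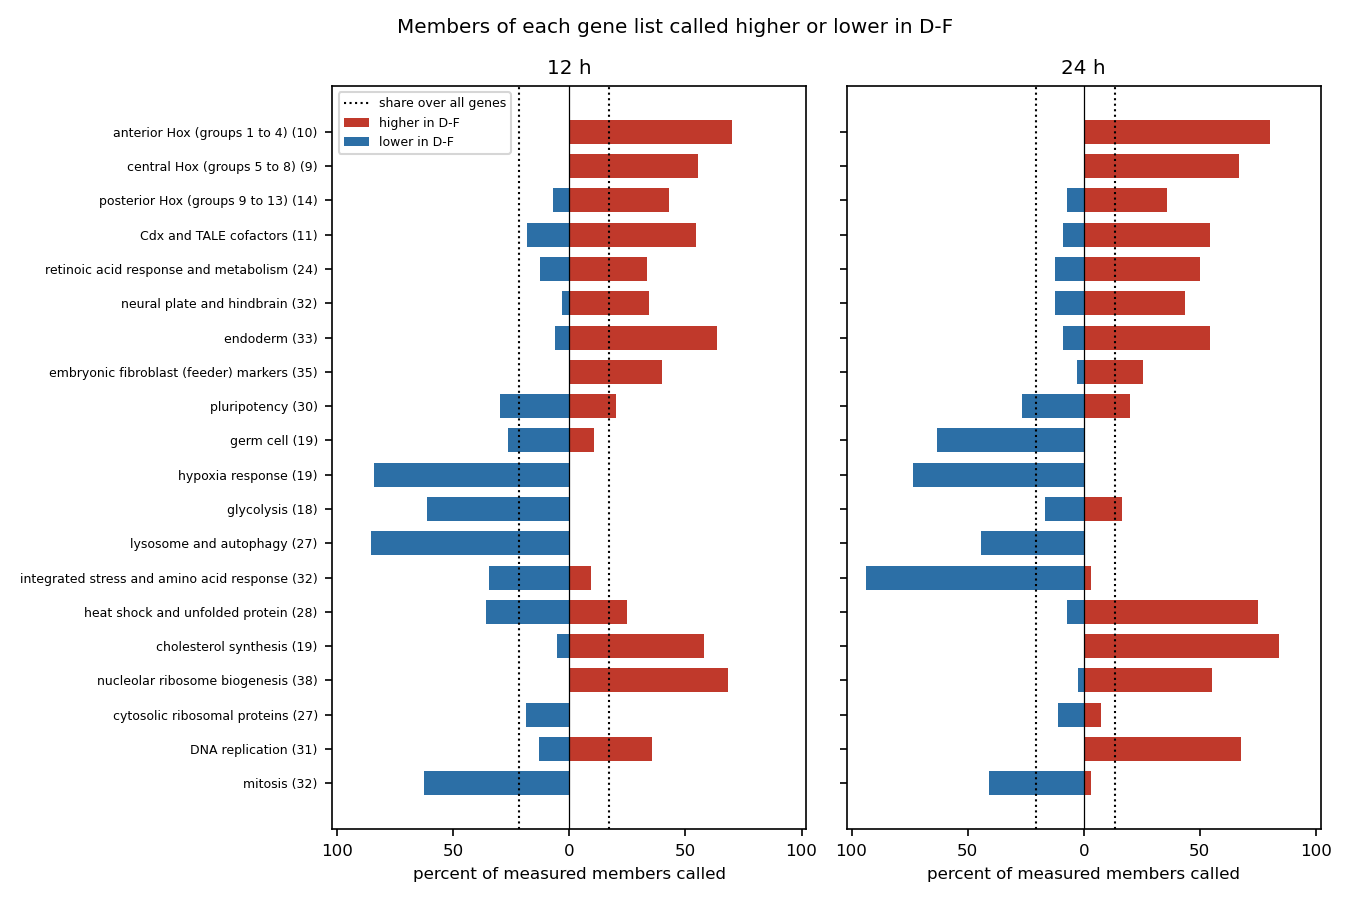
Percent of the measured members (number in brackets) of 20 gene lists called higher (red, to the right) or lower (blue, to the left) in D-F at 12 h and 24 h. The dotted lines give the share over all genes, 17.2% higher and 21.7% lower at 12 h and 13.3% higher and 20.4% lower at 24 h. The lysosome and hypoxia lists reach furthest to the left at 12 h and the integrated stress and hypoxia lists at 24 h, and the anterior Hox, endoderm and cholesterol lists reach to the right at both times.

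Among pluripotency genes, Pou5f1, the core stem cell factor, averaged 13.40 in 12 h D-F and 13.39 in 12 h A-C, and 12.86 in 24 h D-F and 12.85 in 24 h A-C, and was not called. Of 30 genes, 6 were higher and 9 lower (30.0%) at 12 h, against 17.2% and 21.7% of all genes, and 6 were higher and 8 lower (26.7%) at 24 h, against 13.3% and 20.4% of all genes. These shares are near those over all genes. At both times, 4 of the 30 were higher and 5 lower. The naive-state factors Prdm14 (-1.21 ± 0.16 and -0.93 ± 0.16), Nr5a2 (-0.83 ± 0.10 and -0.99 ± 0.10), Esrrb (-0.90 ± 0.13 and -0.56 ± 0.13) and Klf2 (-0.70 ± 0.14 and -0.68 ± 0.14) were lower in D-F at both times, while Klf4 was higher (0.78 and 0.58). Sox2, Utf1 and Zfp42 were not called at either time. At 24 h Nanog was lower (-0.25) and Dppa5a higher (0.27), and neither was called at 12 h.

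The arrays of the other 6 times, whose means did not enter the calls, were set beside the letter groups. For each of the 3330 shared genes, the mean at another time was placed with the nearer of the D-F and A-C levels, each averaged over 12 h and 24 h. At 16 h, 88.0% of the shared genes lay nearer A-C, and at 8 h 65.3% did. From 36 h to 72 h, 66.6% to 76.4% lay nearer D-F. Over all 18193 genes these shares were 70.3% and 58.1% nearer A-C at 16 h and 8 h, and 57.9% to 63.2% nearer D-F later. Ero1a averaged 12.32 at 8 h and 12.73 at 16 h, beside its A-C values, and 11.02 to 11.47 from 36 h on, beside its D-F values. The B1 repeat, given above, has the same split. So have the hybridisation controls BioDn and BioC, which differed by 1.34 to 1.63 from 36 h on and 1.00 to 1.05 at 8 h and 16 h. Time and the set of arrays cannot be told apart here.

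Genes that moved strongly along the course were set against the letters too. Over all genes, 17.2% were higher and 21.7% lower in D-F at 12 h, and 13.3% were higher and 20.4% lower at 24 h. Of 357 genes that rose by at least 1 log2 between 8 h and 16 h, 89 were higher and 158 lower in D-F at 12 h, and 130 were higher and 77 lower at 24 h. Of 110 that fell, 56 were higher and 16 lower at 12 h, and 26 were higher and 38 lower at 24 h. Of 464 genes that rose by at least 1 log2 between 36 h and 72 h, 142 were higher and 36 lower in D-F at 12 h, and 126 were higher and 38 lower at 24 h. The genes that fell late, 157 in number, were also more often higher than lower in D-F, 69 and 40 at 12 h and 76 and 27 at 24 h.

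**Figure D5:**
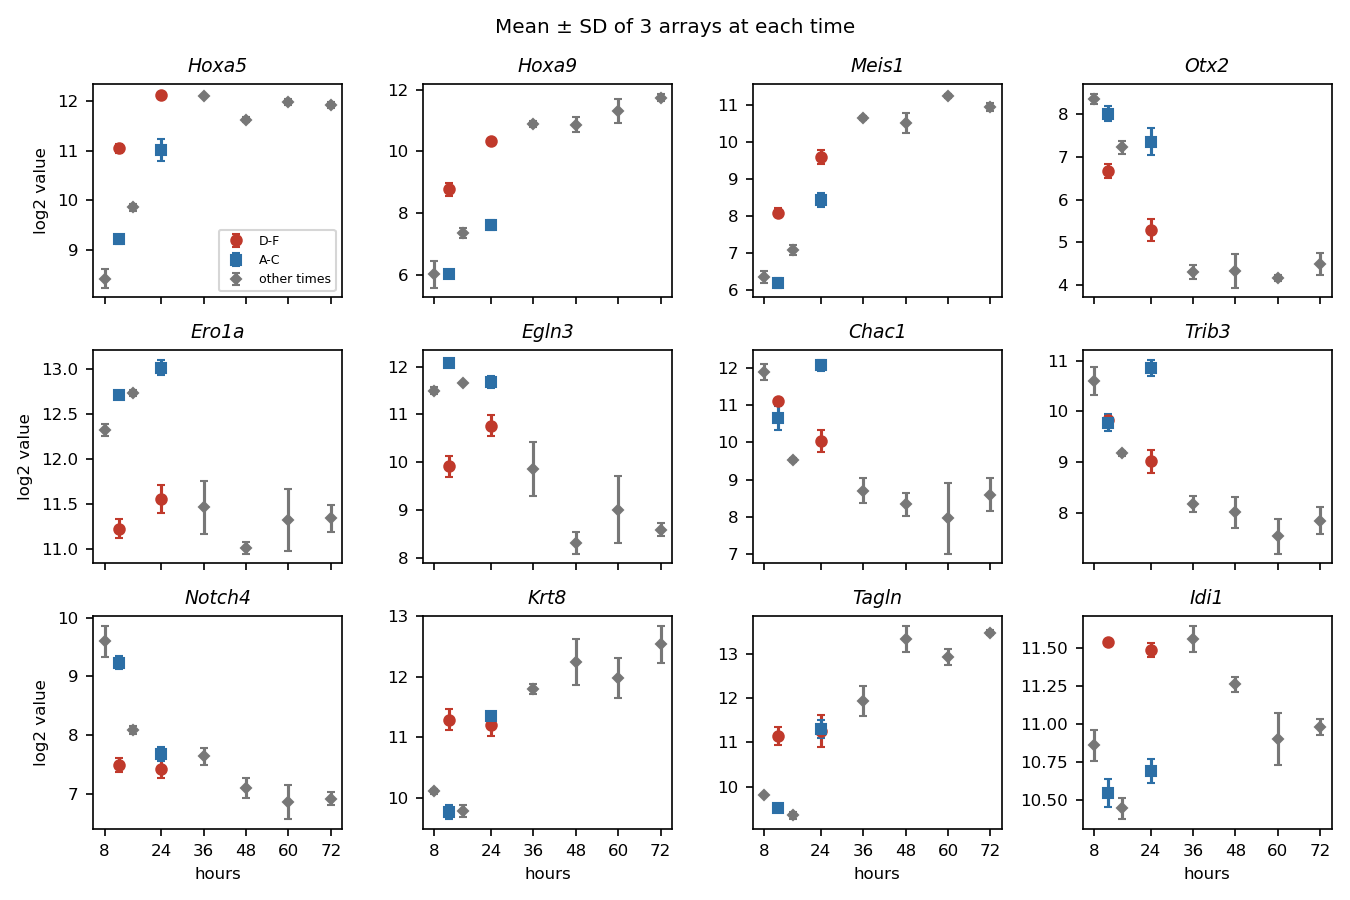
Mean ± SD of 3 arrays in log2 units against hours for 12 genes, with D-F (red circles), A-C (blue squares) and the other times (grey diamonds). Ero1a and Egln3 at 8 h and 16 h lie beside A-C and from 36 h on beside or below D-F, Hoxa5 in 12 h D-F lies above its 16 h level, and Krt8 and Tagln in 12 h D-F stand near their 24 h levels.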

How the data were processed

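Per the labels' protocols, RNA was amplified and biotin-labelled for Affymetrix mouse arrays. The log2 values are those the authors deposited, and their background correction and normalisation are not given in the sources used here. The submitters' processing notes name limma 3.8.3. Of 45101 probe sets, 34945 named a single gene in the platform annotation, and 9160 with none, 932 with several and 64 controls were left out. The probe set with the highest mean stood for each of 18193 genes.

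A model with 10 groups was fitted over all 30 arrays with limma 3.58.1 in R 4.3.3 (lmFit, eBayes), after tests on simulated data, and p-values were adjusted by Benjamini-Hochberg over all genes. No arrays of a group were identical. Genes were named by rule: the largest differences without overlap of arrays and above the mean array median of 6.37 in each class, the leading members of each of 39 lists, and Hox and RA genes. Foxa2, Klf4, Pou5f1, Sox17, the fibroblast genes and those said so in the text were named after their values were seen. The same holds for Dppa5a, Nanog, Pax6, Sox2, Tubb3, Utf1 and Zfp42. The members and lists were chosen with earlier results of these data known. Alternatives changed the scaling, probe sets, filter, variance prior, array weights, arrays in the fit, replicate block and minimum difference, and left out each array in turn. Promoters came from RefSeq tables.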

Additional observations from a re-analysis of the deposited data

Results flagged for a closer look

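The difference between D-F and A-C was tested for a change between 12 h and 24 h, and that test is what brought up each result here. It was called for 3483 genes (limma, adjusted p under 0.05), of which 514 were called at both times in the same direction. Values in brackets are the difference at 12 h minus that at 24 h, in log2 units, for genes named in the text. No explanation was tested.

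Among genes higher in D-F at both times, the difference was larger at 12 h for Car3 (1.03), Gbx2 (1.16), Hoxa4 (1.03), Hoxa5 (0.72), Hoxb1 (0.70), Hoxb6 (1.20) and Meis1 (0.74). Further such genes were Nt5e (1.57) and Sox1 (0.88). It was larger at 24 h for Insig1 (-0.80), Nr2f1 (-0.97) and Ptn (-0.96). Among genes lower at both times, the gap was wider at 12 h for Bhlhe40 (-0.77), Egln3 (-1.26), Foxa1 (-0.46), Gabarapl1 (-0.43), Naglu (-0.45) and Ndufa4l2 (-1.46). This was also seen for Xbp1 (-0.43). The value for Lrrc31 (-1.69) carries no direction, because both of its D-F means lay under the floor and its differences are bounds. The gap was wider at 24 h for G0s2 (1.01), Jdp2 (1.11), Mef2b (0.63), Otx2 (0.73), Pla2g2e (0.81) and Vldlr (1.16).

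Genes called higher at 12 h alone included Ahnak (0.98), Anxa3 (1.50), Cdk6 (1.38), Cdx2 (0.69), Hoxb2 (1.23), Hoxb5 (1.35) and Krt8 (1.68). Next to these stood Nefl (1.59), Rdh10 (0.70), Rfx4 (1.38) and Tagln (1.66). Genes called lower at 12 h alone included Ddit3 (-0.85), Dlx3 (-1.01), Eno2 (-1.06), Hk1 (-0.77), Igsf21 (-1.53), Nfe2l3 (-1.68) and Notch4 (-1.47). The test also picked Rgcc (-1.48), Sema4g (-1.23) and Vsir (-1.10). These placements rest on the chosen probe sets, and other sets of Ahnak, Cdk6, Nefl and Vsir were called at 24 h.

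At 24 h alone, the genes named as higher were Cbr3 (-0.68), Col8a2 (-0.77), Dhrs3 (-0.46), Ednrb (-0.95), Fgf15 (-1.07), Hoxc6 (-0.51) and Hoxc8 (-2.03). More of them were Hoxc9 (-0.48), Hsp90b1 (-0.65), Hspa1a (-0.70), Lhx1 (-1.04), Lrp4 (-0.95), Rarb (-0.59) and Tgfbi (-1.10). Those named as lower at 24 h alone were Atf5 (1.53), Chac1 (2.49), Fbln5 (1.50), Nupr1 (1.45), Platr4 (1.31), Slc25a40 (1.35), Stc2 (1.28) and Trib3 (1.89). For Nupr1 this holds on the chosen probe set, and its other set was called lower at 12 h as well.

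At 12 h both groups of Ednrb and Hoxc8 lay under the floor, so their values here have an inexact 12 h side.

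Called in opposite directions, higher at 12 h and lower at 24 h, were Acta1 (2.25), Actc1 (1.67), Ltb (1.77), Mme (1.83) and Sycp1 (1.68). Lower at 12 h and higher at 24 h were Calr (-0.83), Crabp1 (-0.81), Creld2 (-0.76), Dnajc3 (-0.81), Gjb5 (-1.29), Hspa5 (-0.77) and Manf (-0.90). Others were Mipol1 (-1.71), Nuak2 (-1.24), Pdia4 (-0.81), Pdia6 (-0.91), Pxylp1 (-1.44), Sdf2l1 (-1.22) and St6galnac3 (-1.39).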

How the results depend on the processing

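The count of genes called at both times in the same direction, 3330, lay between 2728 (without array F of 24 h D-F) and 3302 when 1 array was left out, and the other 6 counts of genes also stayed within 1.5 times under every alternative but 1. Leaving out 1 array gave 6147 to 7109 genes at 12 h, 4925 to 6149 at 24 h, 2810 to 3386 with a change between the times, 1161 to 1550 at 12 h alone, 775 to 997 at 24 h alone and 313 to 399 in opposite directions. The exception was a minimum of 1 log2, which left 385 genes at 12 h, 261 at 24 h, 208 with a change between the times, 106 in the same direction at both, 1 in opposite directions, 82 at 12 h alone and 47 at 24 h alone. The genes themselves were kept less well: of the 3330, 73.8% were called the same way on the mean of a gene's probe sets, 83.2% with arrays centred on their median and 99.9% with the replicate block. Of 3791 other probe sets of these genes, 948 were called the same way at both times and 39 the opposite way. For the named genes Cavin2, Ednrb, Fbln5, Pknox2, Rfx4, St6galnac3, Zc3h6 and Zfp703, other probe sets were called at neither time. The title letter as a replicate block gave 3332 genes in the same direction and changed none of the 7 counts by over 1.5 times. Arrays of a letter did not deviate together at 12 h and 24 h (r from -0.09 for A to 0.137 for F), so the letters were not taken as pairs. The estimate of array weights stopped before it converged.

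Of 229 called differences of 146 of the genes named, 195 kept their call and direction in all alternatives run. Another probe set turned Jdp2 at 24 h to 0.0804, and the mean of its probe sets turned Slc38a2 at 12 h to -0.0185 and Pbx2 at 24 h to 0.0448. Without array F of 24 h D-F the calls of Acta2, Aldoc, Cavin2, Hoxc9, Ndufa4l2, Pbx2, Prss23 and Rara at 24 h were lost, and without array A of 24 h A-C those of Acta2, Aldoc, Hoxb1, Hoxc6, Hoxc9 and Rara. That of Pbx2 was also lost without array B of 24 h A-C or D of 24 h D-F, and that of Pbx4 at 12 h without B, C, D or E. The cause was not tested. Signal near the floor of the chip limits differences of dim genes.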

Other observations

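Beside the counts here, 17.2% of all genes were higher and 21.7% lower in D-F at 12 h, and 13.3% were higher and 20.4% lower at 24 h. Of 19 germ cell genes, 2 were higher and 5 lower in D-F at 12 h, and 0 were higher and 12 lower at 24 h, with medians of -0.06 and -0.39. The 12 h median changed sign when arrays were centred. Of 32 genes of Wnt, FGF and hedgehog signalling, 12 were higher and 5 lower at 12 h and 11 were higher and 5 lower at 24 h, 9 of them higher and 4 lower at both times. Of 33 splicing factors, 14 were higher and 5 lower at 12 h and 20 were higher and 1 lower at 24 h. Of 42 nuclear genes of oxidative phosphorylation, 5 were higher and 16 lower at 12 h and 7 were higher and 12 lower at 24 h. That is 38.1% lower at 12 h and 28.6% lower at 24 h. The 24 h median of these genes, -0.06, changed sign when arrays were centred (0.0002).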
